A study of Mus musculus with 4 samples.

Results

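Features of a mouse expression array that are named by a genomic interval rather than by a gene were examined for their detection and for their ratio between 2 genotypes of neural cultures. The interval names give a chromosome, a start, an end and a suffix F or R, in the mm9 build. Of 16181 such features on the array, 4321 (26.7%) were detected, and they lay in 2257 of the 4607 intervals named with a strand. The 2257 intervals correspond to 1891 of 3540 sets of coordinates when both strands are counted together. A feature is a single oligonucleotide of the array. It counted as detected when the scanner software marked the RNA of either genotype as well above background on 3 or 4 arrays. The members were therefore selected on the detection marks themselves, and the counts of detected features below are descriptions without a test. Another 13 features with a chromosome name carried no strand suffix and were left out.

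The cultures came from APPswe/PS1dE9 mice, which carry mutant human amyloid precursor protein and presenilin transgenes linked to familial Alzheimer's disease, and from wild-type (WT) mice, all C57BL/6. Neural precursor cells were taken from the telencephalon at embryonic day 13, expanded for 5 days as neurospheres with EGF and FGF2, and kept for 7 days without these factors to differentiate. Each of 4 arrays compared 1 APPswe/PS1dE9 RNA with 1 WT RNA. The APPswe/PS1dE9 RNA carried Cy3 on replicates 1 and 2 and Cy5 on replicates 3 and 4. The sources used here do not say whether the replicates came from separate animals or litters. Sex-linked genes, given below, show that the cultures of a genotype were not all the same. The p-values measure the spread among these hybridisations, which may be technical in part.

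Much of the mammalian genome outside protein-coding genes is transcribed. Long noncoding RNAs from such regions are often spliced and polyadenylated like messenger RNAs, are commonly present at low levels, and are frequently restricted to particular tissues or stages. In neural cells, members of this class act in the nucleus on chromatin and nuclear bodies, or regulate neighbouring genes, while for most no function is known. An interval here is a named stretch of coordinates, and whether it holds such an RNA was not tested. Transcription from the opposite strand of the same interval gives a different RNA. The files do not say whether the suffix names the strand of the oligonucleotide or of the transcript. The genes nearest to each interval were not analysed here, and the intervals are described by position and strand.

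The cell markers of the cultures were all well above background in both genotypes on 4 arrays. The astrocyte genes Gfap and Slc1a3 were higher in APPswe/PS1dE9, with log2 ratios of 0.69 ± 0.06 (SE, n = 4 arrays) and 0.43 ± 0.06, and the microglial gene Aif1 was higher at 2.22 ± 0.07. Dcx, of young neurons, was lower at -0.54 ± 0.11. The other 7 of 11 markers (Nes, Sox2, Tubb3, Map2, Olig2, Mbp and Mki67) did not pass the test, with log2 ratios from -0.31 for Map2 to 0.55 for Nes. In bulk RNA, fewer cells of a type and less RNA per cell cannot be told apart, and the part of these cell markers in the interval ratios was not tested. By Xist and the Y-linked gene Eif2s3y, array 1 set a male APPswe/PS1dE9 culture against a female WT culture and array 3 the reverse. By the same genes, both cultures were female on arrays 2 and 4. The Y-linked gene Ddx3y was less clear, being well above background on 2 arrays in each genotype and without a ratio on replicate 2. Depending on the array and channel, 25.3% to 41.3% of interval spots were well above background.

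Detection was spread over the genome and over both strands. Features with the suffix F were detected in 2077 of 8171 cases (25.4%) and those with R in 2244 of 8010 (28.0%). By chromosome, the share detected was lowest on chromosome 9, at 146 of 736 features (19.8%), and on chromosome 18, at 115 of 571 (20.1%). It was highest on chromosome 17, at 303 of 899 (33.7%), and on chromosome 19, at 105 of 322 (32.6%). In whole intervals the share ran from 67 of 180 (37.2%) on chromosome 18 to 61 of 99 (61.6%) on chromosome 19. On chromosome 2 the strands differed in these counts, with 33.1% of R features and 24.2% of F features detected, and on chromosome 16 they stood at 35.0% and 23.6%. Chromosome 1 ran the other way, at 20.5% for R and 26.2% for F. No interval of chromosome Y is on the array.

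**Figure D1:**
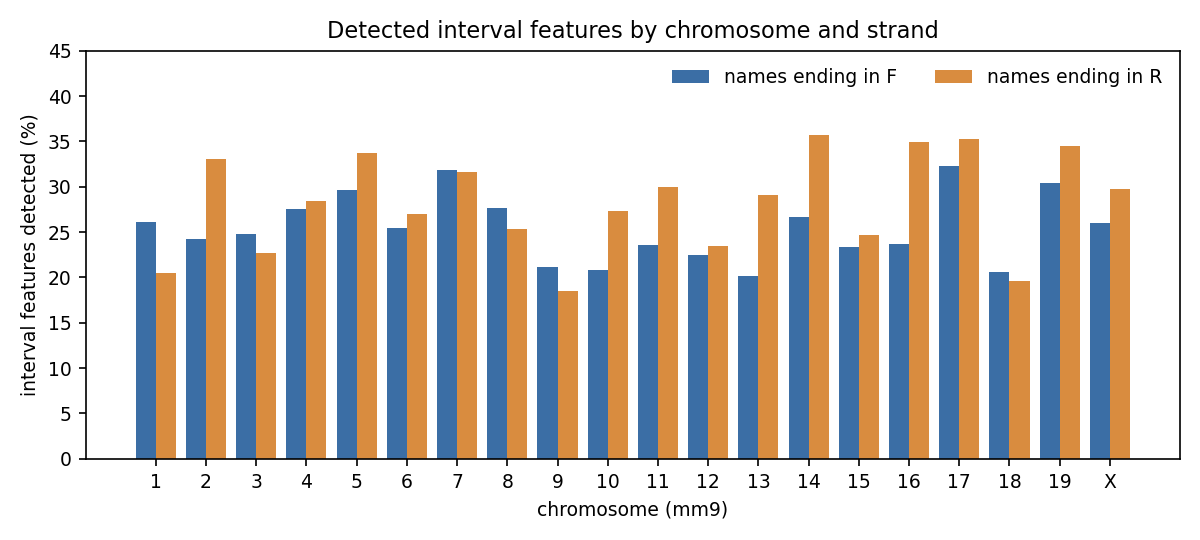
Share of interval features detected (percent, vertical axis) on each chromosome (horizontal axis), with 1 bar for each strand suffix; bars carry no error because each is 1 count over the array. Shares over both strands lie between 19.8% on chromosome 9 and 33.7% on chromosome 17.

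Features of 1 interval were often not detected together. Of 3917 intervals with more than 1 feature on the array, 2048 had at least 1 detected and 379 had all detected. Among the 2257 intervals with a member, 1225 had 1 member and 1032 had 2 or more, up to 10. Intervals with a member had a median length of 12076 bp, over a range from 90 to 533972 bp. Those without a member had a median of 9104.5 bp. Detected intervals often overlapped one another, since 779 overlapped another on the same strand and 1179 overlapped one on the opposite strand, and 793 overlapped neither kind. Overlapping intervals may share sequence, so their features are not independent readings.

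Of 1067 intervals designed on both strands, 366 had a detected feature on both, 211 on F alone, 267 on R alone and 223 on neither. Where both strands were detected, the mean log2 ratio of the F features and that of the R features correlated weakly (Pearson r = 0.14 across 366 intervals, which share the same 4 arrays and are not independent replicates).

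Most members, 3634, were detected in both genotypes by the rule. Another 482 were detected in APPswe/PS1dE9 alone and 205 in WT alone. Members of the last 2 kinds passed through the genotype in which they were above background, so their direction is given as a description. Many just missed the rule in the other genotype. Of the 482, WT was above background on 0 arrays for 18, and 243 had 3 arrays in APPswe/PS1dE9 and 2 in WT. Of the 205, APPswe/PS1dE9 was above background on 0 arrays for 1, and 151 had 3 arrays in WT and 2 in APPswe/PS1dE9. At the edge of the rule, 996 members were well above background on 3 arrays and had a median log2 ratio of 0.03. The 1370 features just outside, with 2 arrays, had a median of 0.01.

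The genotype ratio was not used by the detection rule except through these 2 kinds of member. It was fitted for every feature as a log2 ratio of APPswe/PS1dE9 over WT with a term for dye, and p-values were adjusted over all 22859 features tested. Among the members, 69 were higher in APPswe/PS1dE9 (1.60%), in 43 intervals, and 54 were lower (1.25%), in 39 intervals, at an adjusted p under 0.05. Over all features tested, 6.96% were higher and 1.79% were lower. Both member shares were below that background. The median log2 ratio of the members was 0.01, as was that of all features, and the median mean intensity was 7.51 on the log2 scale for members and 9.42 for the other features tested. The part of this difference in intensity in the lower share of calls was not tested. Without adjustment, 594 of the 4321 members had p under 0.05, against 5527 of all 22859 features, a larger share. With the scanner software's own processed signals the balance of calls turned, to 22 higher and 47 lower, so that 31.9% of called members were higher where the fit used here gave 56.1%. With median centring in place of loess the share was 46.9%, from 107 higher and 121 lower. These 2 scalings placed the median of all features at -0.07, and that of the members at -0.15 and -0.03. The calls over all features moved too. In either direction, 8.75% of all features were called by the fit used here, 3.49% with processed signals and 12.1% with median centring.

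**Figure D2:**
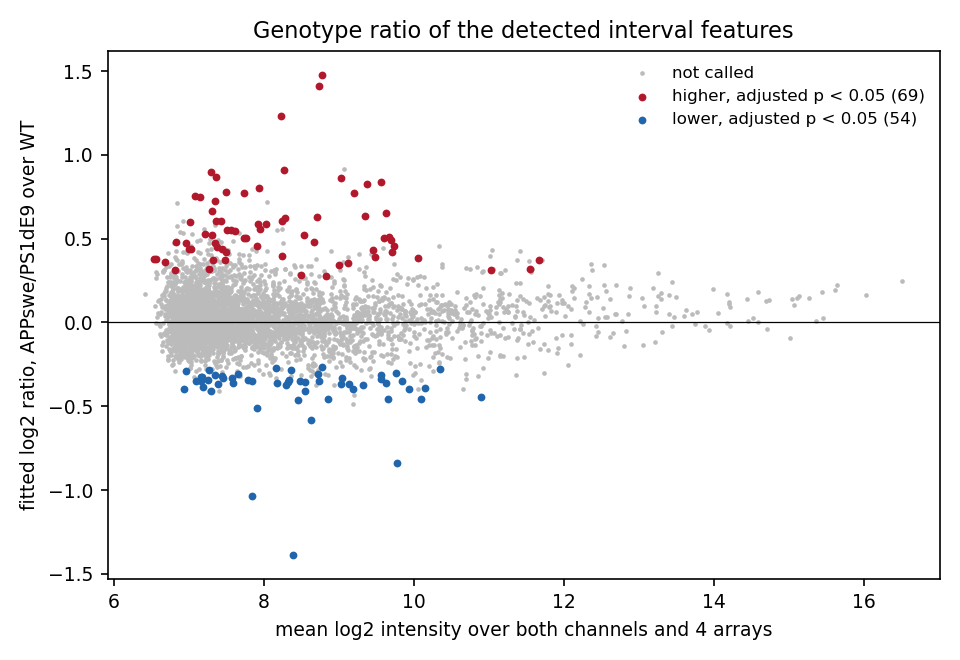
Fitted log2 ratio of APPswe/PS1dE9 over WT (vertical axis) against mean log2 intensity over both channels and 4 arrays (horizontal axis), 1 point for each of the 4321 detected interval features. Red points are the 69 called higher and blue points the 54 called lower; the members' quartiles are -0.07 and 0.10.

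The called members were mostly small in their difference. The 69 higher members had log2 ratios from 0.28 to 1.48 with a median of 0.51, and the 54 lower members from -1.39 to -0.26 with a median of -0.35. Only 5 differed by more than 2-fold. The sign was the same on 4 arrays for 115 of the 123. Of the called members, 104 were detected in both genotypes (55 higher, 49 lower), while 14 higher ones were detected in APPswe/PS1dE9 alone and 5 lower ones in WT alone. On strand F, 35 were higher and 26 lower, and on strand R 34 were higher and 28 lower. By chromosome, 11 of 224 members were higher, in 6 intervals, and 1 was lower on chromosome 14. On chromosome 6, 7 of 256 were higher, in 3 intervals, and 9 were lower, in 4. On chromosome 10, 3 of 171 were higher, in 2 intervals, and 8 were lower, in 5. Over all features tested, 6.96% were higher and 1.79% were lower. Several features of 1 interval enter these counts, which are descriptions. Chromosome 16 had no called member among 167 by limma, neither here nor with processed signals. Without adjustment, 22 of its members were higher and 3 lower at p under 0.05, and with processed signals 5 were higher and 29 lower. Over all features in the fit used here, 5527 of 22859 had an unadjusted p under 0.05 in either direction.

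Single arrays weighed heavily on these counts. Leaving out replicate 3 left 17 higher and 4 lower members, and leaving out replicate 4 left 10 and 2. Leaving out replicate 1 gave 343 and 79, and leaving out replicate 2 gave 159 and 33. On arrays 2 and 4 alone, where both cultures were female, 10 were higher and 0 lower by limma without a dye term, and those 10 were all among the 123. Without adjustment, 195 were higher and 116 lower at p under 0.05 on these arrays. The share over all features in that setting is not given here. When 1 replicate is left out, the array left alone in its dye orientation is assumed to vary like the pair in the other. Across members, the ratios of arrays with the same dye orientation correlated (Spearman rho = 0.29 for replicates 1 and 2 over 4314 members, and 0.27 for replicates 3 and 4 over 4302), while those of opposite orientation ran from -0.07 to 0.05. These correlations are across features that share the arrays.

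The most strongly higher interval was chr8:93337794-93348869 on strand R, 11076 bp long, with 3 of 3 features called. For the feature with the largest change, the log2 ratios were 1.61, 1.34, 1.46 and 1.50 on replicates 1 to 4 (fitted 1.48 ± 0.07 SE, 2.79-fold, adjusted p = 0.0003593). The log2 intensities behind it were 9.78, 9.28, 9.44 and 9.57 in APPswe/PS1dE9 and 8.17, 7.94, 7.98 and 8.06 in WT, so the groups did not overlap. The other two features had fitted log2 ratios of 1.41 ± 0.07 and 1.23 ± 0.10, again with no overlap of the groups. Averaged over its 3 features, the interval stood at 1.38 ± 0.08, a 2.59-fold difference.

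The interval chr6:57583950-57624216 on strand F was next by the mean of its features. Both features entered the members through APPswe/PS1dE9 alone (4 arrays well above background, against 2 in WT), so their direction was partly fixed by that choice and their values are a description. The first had log2 ratios of 0.64, 0.72, 1.12 and 1.11 (fitted 0.90 ± 0.06), and the second 0.71, 0.60, 1.11 and 1.07 (fitted 0.87 ± 0.06). Replicates 3 and 4 were higher than replicates 1 and 2 for both, and the intensities of the genotypes did not overlap for either. In chr4:149445201-149445902 on strand F, an interval of 702 bp, the log2 ratios were 0.79, 0.70, 0.98 and 1.17 for the feature with the highest fit, 0.91 ± 0.07. The other two were fitted at 0.80 ± 0.09 and 0.77 ± 0.09. All 3 features were called, although for the first of them the intensities of the genotypes overlapped between arrays while each array's own ratio was above 0.

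A cluster on chromosome 6 held 2 overlapping intervals of strand F that were higher with every detected feature. In chr6:31170350-31287353 the 3 features had fitted log2 ratios of 0.86 ± 0.09, 0.56 ± 0.07 and 0.52 ± 0.08. In chr6:31233512-31241062, which lies inside it, they were 0.59 ± 0.07 and 0.42 ± 0.06. The feature with the highest fit stood at 0.68, 1.05, 0.71 and 1.00 on replicates 1 to 4. Toward the end of the cluster, chr6:31267612-31293337 was near 0 on strand F, at 0.10 ± 0.06 and 0.05 ± 0.08, and also on strand R, at -0.03 ± 0.08 and 0.15 ± 0.16. The strand R interval chr6:31078802-31079644 before it had log2 ratios of 0.35 ± 0.13, 0.72 ± 0.17 and 0.47 ± 0.18 that did not pass the test, with the highest values on replicate 3.

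The largest decrease was in a cluster on chromosome 10 whose short intervals on strand F lie within 21424 bp with a longer one on strand R. In chr10:96098058-96098623 the first feature had log2 ratios of -0.74, -0.35, -1.90 and -2.56 (fitted -1.39 ± 0.13, adjusted p = 0.002639) and the second -0.45, -0.25, -1.02 and -1.64 (fitted -0.84 ± 0.11). The third, at -0.15 ± 0.09, did not pass the test. In chr10:96103732-96103867, 136 bp long, the ratios were -0.32, -0.45, -1.45 and -1.93 (fitted -1.04 ± 0.09). Replicates 3 and 4, with APPswe/PS1dE9 in Cy5, were far lower than replicates 1 and 2 in each of these 3 features. The dye term takes up that difference, so the SE does not include it, and intensities of the genotypes overlapped across arrays. In chr10:96096995-96097589, the feature at -0.40 ± 0.08 was a member through WT alone, so its direction is a description, and the other ran from 0.65 on replicate 1 to -1.05 on replicate 4. Of the 3 features of chr10:96082444-96096696 on strand R, none passed the limma test, with log2 ratios of -0.35, -0.33 and 0.08, the first 2 at adjusted p = 0.09573 and 0.06049.

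**Figure D3:**
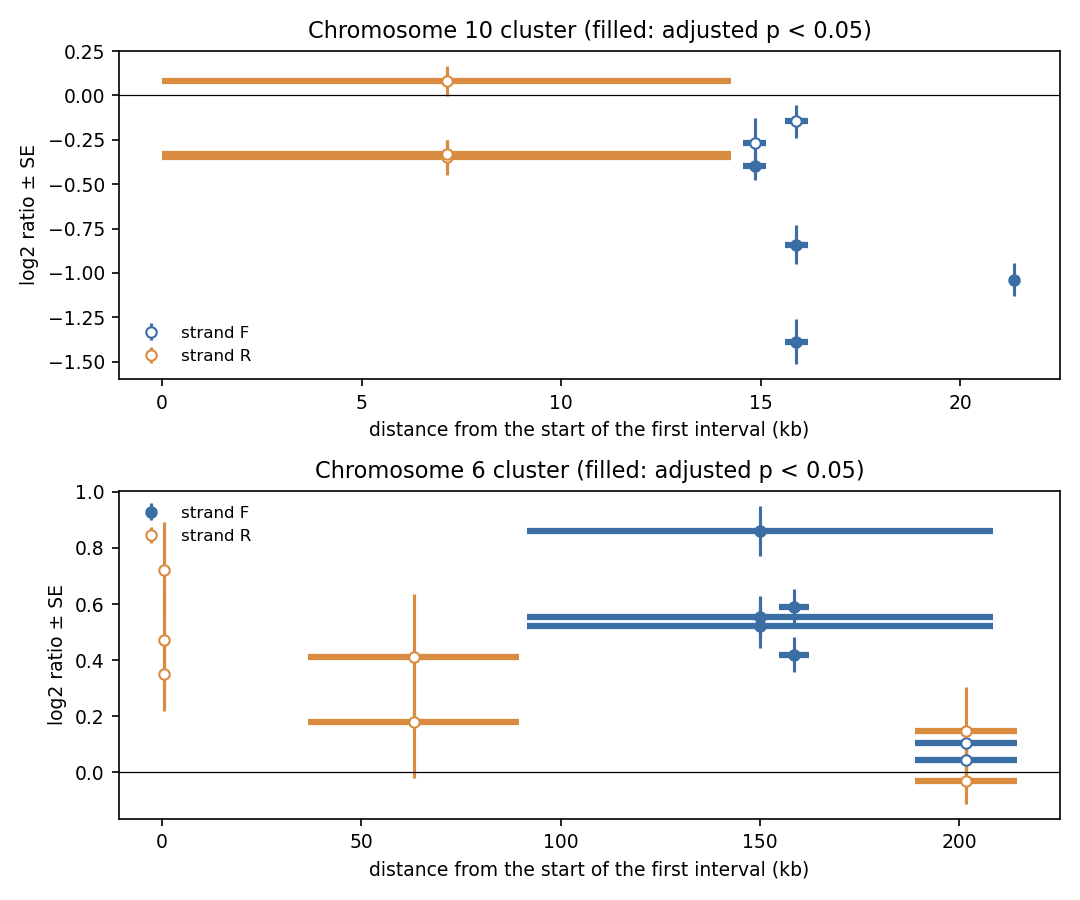
Fitted log2 ratio of APPswe/PS1dE9 over WT ± SE (vertical axis) for each detected feature of the chromosome 10 cluster and the chromosome 6 cluster, with the interval drawn as a bar along the distance in kb from the first interval's start (horizontal axis). Points stand at the middle of the interval because the position of a feature within it is not given; on chromosome 10 the 4 called features (filled) are on strand F, and on chromosome 6 the 5 called features are on strand F.

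Other higher intervals held several features called in the same direction. In chr7:128341797-128414692 on strand R, 4 of 5 features were called, with fitted log2 ratios from 0.61 to 0.83, and the fifth stood at 0.37 ± 0.08 (adjusted p = 0.05062). Replicate 4 was the highest array for each of the 5. In chr14:26973425-26986650 on strand F the 2 features were at 0.84 ± 0.09 and 0.45 ± 0.10. Upstream in coordinates, chr14:26834450-26847000 on the same strand had 2 of 3 features called, at 0.77 ± 0.09 and 0.60 ± 0.08, and another at 0.14 ± 0.06.

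In chr4:123155515-123361565 on strand F, 2 of 8 features were detected. One was higher at 0.72 ± 0.07, and the other, a member through APPswe/PS1dE9 alone, stood at 0.53 ± 0.08 as a description. In chr5:96591892-96606467 on strand F all 3 were higher, at 0.65 ± 0.07, 0.52 ± 0.07 and 0.40 ± 0.08. In chr14:55433382-55452757 on strand R both were higher, at 0.64 ± 0.06 and 0.48 ± 0.08. In chr5:22890322-22939119 on strand R the 3 features stood at 0.51 ± 0.07, 0.49 ± 0.06 and 0.39 ± 0.08. The interval chr5:22887983-22939658 contains it on the same strand and had 2 of 3 features called, at 0.46 ± 0.07 and 0.43 ± 0.06, with the other at 0.31 ± 0.09. Inside the longer interval, the 3 features of chr5:22928221-22939127 on strand R were not called, at 0.20 ± 0.16, 0.0047 ± 0.07 and -0.0050 ± 0.11.

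For 2 other higher intervals the called value rested on 1 feature and on replicates 1 and 2. In chr15:83281223-83284791 on strand R the log2 ratios were 1.50, 1.34, 0.18 and 0.01 (fitted 0.76 ± 0.07), with APPswe/PS1dE9 well above background on 3 arrays and WT on 1, so that it was a member through APPswe/PS1dE9 alone. In chr9:24617562-24625262 on strand R they were 1.27, 1.31, 0.46 and 0.08 (fitted 0.78 ± 0.08), and the second detected feature of the interval stood at 0.06 ± 0.08. In both, replicates 3 and 4 were far below replicates 1 and 2, a difference that the SE leaves out. A like case, chr14:78223544-78224961 on strand R, had no value on replicate 1, where its spot was an outlier, and ratios of 1.29, 0.20 and 0.21 on the other arrays (fitted 0.75 ± 0.08). WT was well above background there on 2 arrays, so this feature too was a member through APPswe/PS1dE9 alone. It was the 1 called member of 26 members that lacked an array.

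The lower intervals beyond the chromosome 10 cluster differed by at most 1.50-fold in this fit. With processed signals the differences were larger, at up to 2.05-fold in chr5:77084398-77086144, 2.27-fold in chr5:77239012-77271614 and 1.93-fold in chrX:72966144-73011019. The 2.27-fold feature, a member through WT alone, and the chrX feature no longer passed (adjusted p = 0.0705 and 0.0797 by limma). The called feature of chr5:77239012-77271614 that was detected in both genotypes stood at 1.70-fold and passed (adjusted p = 0.03024 by limma). In chr5:77084398-77086144 on strand R the ratios were -0.68, -0.65, -0.38 and -0.62 for the first feature (fitted -0.58 ± 0.07, adjusted p = 0.006438) and -0.28, -0.59, -0.62 and -0.54 for the second (fitted -0.51 ± 0.08). All 8 values lay below 0. In chr10:62267317-62269871 on strand R the 3 features were at -0.45 ± 0.09, -0.41 ± 0.09 and -0.37 ± 0.06, and all 3 were called. In chr15:8463685-8494960 on strand R, 2 of 3 were called, at -0.46 ± 0.08 and -0.44 ± 0.08, and the third was at -0.49 ± 0.11 (adjusted p = 0.05272).

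On chromosome 6, chr6:54591416-54597566 was the 1 interval with called features on both strands. On strand F, 4 of 5 features were lower, from -0.40 ± 0.06 to -0.31 ± 0.06, and the fifth was at -0.32 ± 0.07 (adjusted p = 0.05678). On strand R, 1 of 3 was lower, at -0.37 ± 0.07, and the other two stood at -0.25 ± 0.07 and -0.01 ± 0.15. The short interval chr6:54595084-54595833 inside it had both features lower, at -0.36 ± 0.07 and -0.32 ± 0.06. Of the 366 intervals detected on both strands, 20 others had calls on 1 strand.

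In chr6:133054025-133069850 on strand R, 4 of 10 features were detected, of which 2 were lower at -0.46 ± 0.08 and -0.46 ± 0.06 and 2 stood at -0.04. In chr5:77239012-77271614 on strand F, 1 of 3 features was lower at -0.33 ± 0.06, and another stood at -0.38 ± 0.06, a description because it was a member through WT alone. In chr8:89996710-90049453 on strand F and chr19:19005109-19008657 on strand R, 1 feature each was lower, at -0.40 ± 0.08 and -0.39 ± 0.08. The other features of both were below 0 without passing the test, at -0.32 for the first and at -0.31 and -0.26 for the second.

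Few of the named intervals kept their calls under every change of arrays and signals. Of 57 called features in the 27 named intervals, 23 passed with processed signals, 53 without replicate 1, 49 without replicate 2, 21 without replicate 3 and 10 without replicate 4. Among features detected in both genotypes, 5 passed in all 5 of these settings, in 3 intervals. They were the 3 of chr8:93337794-93348869, 1 of chr10:96098058-96098623 and the 1 of chr10:96103732-96103867. The fits without 1 replicate kept the dye term, which takes up the large difference between dye orientations in both chromosome 10 features. Without a dye term, the feature of chr10:96103732-96103867 no longer passed the limma test, while the others of these 5 did. Of the 57, 6 were members through 1 genotype alone and support nothing here. On the same-sex arrays alone, 10 features passed, among them the 3 of chr8:93337794-93348869 and none of the chromosome 10 cluster. With processed signals, the features of chr8:93337794-93348869 stood at 1.55 to 1.67. For 22 of the 57, the log2 ratio was more than 1.5 times that of the fit used here, and for 0 it was less than that by the same factor. Those of chr6:57583950-57624216 stood at 1.50 and 1.57, and that of chr10:96103732-96103867 at -1.66.

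**Figure D4:**
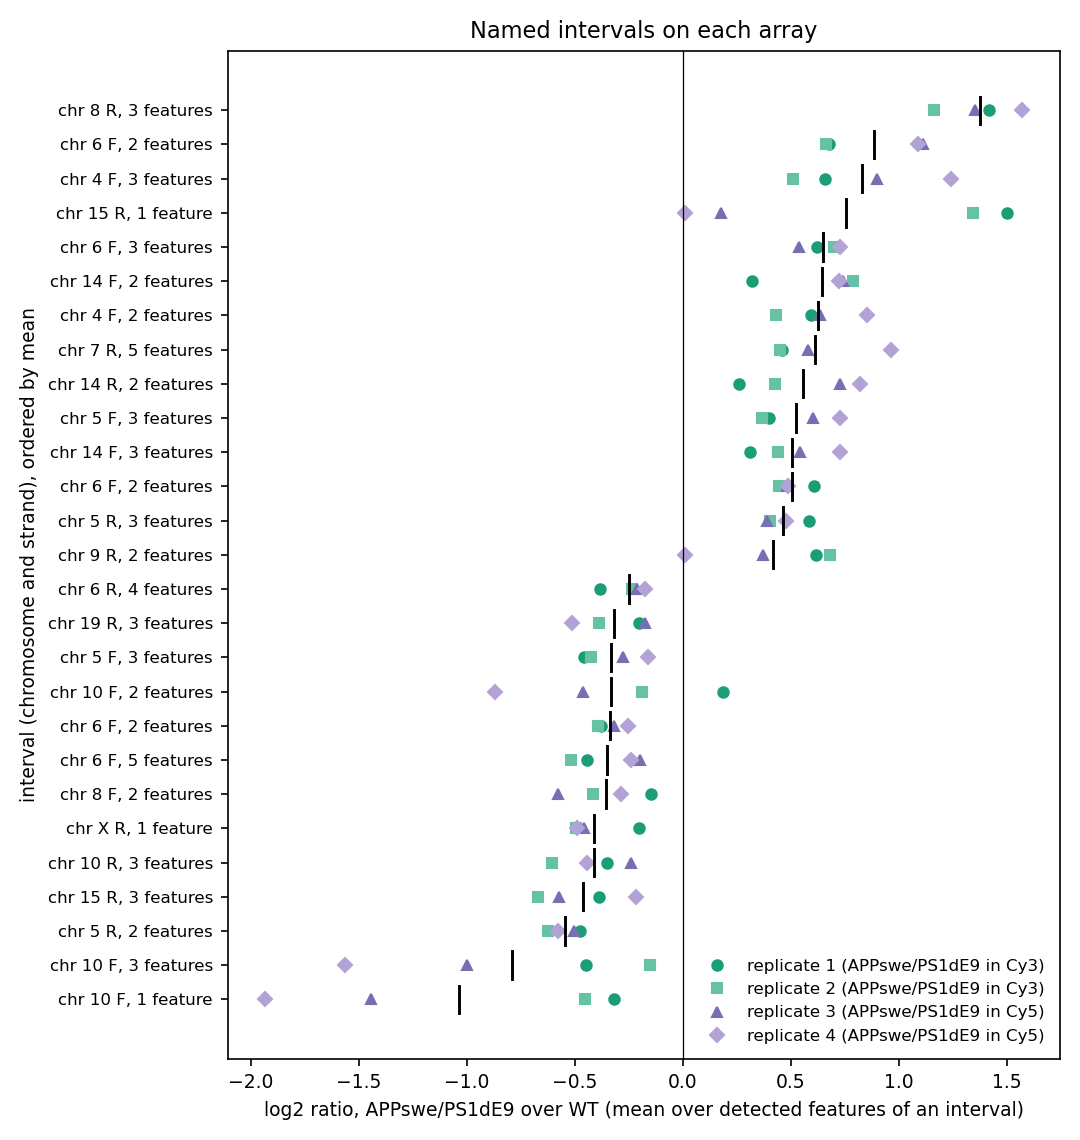
Log2 ratio of APPswe/PS1dE9 over WT (horizontal axis), averaged over the detected features of each of 27 named intervals (vertical axis, ordered by mean, marked with chromosome, strand and number of features), 1 symbol for each array and a vertical tick at the mean of the arrays. Of the intervals with a mean above 0, the chromosome 15 and chromosome 9 ones are near 0 on replicate 4; of those below 0, the chromosome 10 ones on strand F are lowest on replicate 4.

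Over the 1032 intervals with 2 or more members, the log2 ratios of 2 features of the same interval correlated at Pearson r = 0.60 and Spearman rho = 0.48 across intervals, on shared arrays. The median SD among features of an interval was 0.07, and the SD of the interval means was 0.15. Among these intervals, 68 had a called member. In 11 all members were higher and in 3 all were lower, and 0 held calls in both directions by limma, while 3 held features of both directions at an unadjusted p under 0.05. The other 14 called intervals had 1 member each, 10 higher and 4 lower.

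**Figure D5:**
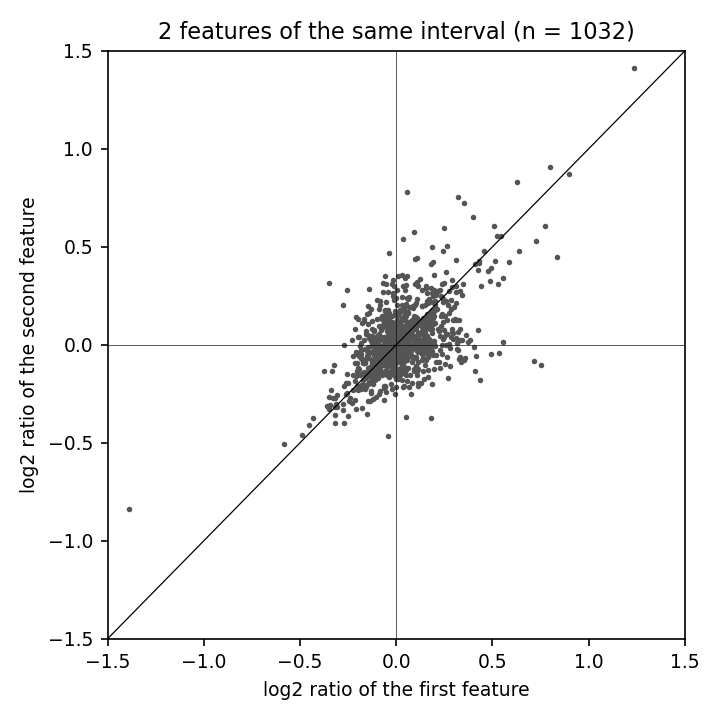
Fitted log2 ratio of a second detected feature (vertical axis) against that of a first (horizontal axis) for the 1032 intervals with 2 or more members, in order of feature identifier; the diagonal marks equal values. Points spread along the diagonal (Pearson r = 0.60), and most lie close to 0.

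When intervals up to 50 kb apart were joined, the members formed 1173 stretches of the genome, of which 73 held a call. Of these, 28 held 2 or more called members, 78 of the 123 in all. A stretch on chromosome 15 from 61919018 to 62102500 was the 1 with calls in both directions: chr15:62046023-62082530 on strand F had a feature at 0.59 ± 0.10, and chr15:61984389-62102500 on strand R had 2 at -0.34 ± 0.06 and -0.27 ± 0.06. These intervals overlap on opposite strands. On chromosome 19, chr19:5834117-5835940 on strand R, picked after its values were seen, had 2 features higher at 0.55 ± 0.11 and 0.54 ± 0.11 and another at 0.39 ± 0.09.

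For 2 called members, the WT signal was marked well above background on 0 arrays. With WT held at or above the lowest signal marked well above background, APPswe/PS1dE9 was 1.30-fold higher for chr1:175654606-175672031 on strand R. For chr17:33995525-34028025 on strand R it was 1.29-fold higher. The fitted log2 ratios were 0.38 ± 0.07 and 0.38 ± 0.06, and the lowest on a single array were 0.29 and 0.19. Both were members through APPswe/PS1dE9 alone. With processed signals their log2 ratios were 1.38 and 1.57, and the first no longer passed (adjusted p = 0.0772 by limma). For each fold, the mean of APPswe/PS1dE9 was set against the mean of a WT value, after scaling within and between arrays. Per array, that value was the higher of the WT signal itself and the lowest signal marked well above background. These folds are means given without an error and are not minima, and dye bias can enter them. Both were well above background in APPswe/PS1dE9 on 3 arrays.

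On chromosome X, 161 members lay in 81 intervals, with 0 higher and 1 lower. The lower one, chrX:72966144-73011019 on strand R, had ratios of -0.20, -0.49, -0.46 and -0.49 (fitted -0.41 ± 0.07, adjusted p = 0.02461). Among the 39 intervals of this chromosome with 2 or more members, 3 had every member differing by over 0.5 on the log2 scale between replicates 1 and 3, the arrays whose cultures differed in sex, under a rule set after the values were seen. On the autosomes, 38 of 993 such intervals (3.83%) met the same rule, against 7.69% here. Replicates 1 and 3 also differ in dye orientation, which cannot be told apart from sex on these arrays alone. The 5 features of chrX:102567595-102589870 on strand R were between 0.59 and 0.97 on replicate 3 and between -0.36 and -0.09 on replicate 1. The 3 of chrX:47890565-47915775 on strand F were between 0.89 and 0.97 on replicate 1 and between -1.02 and -0.53 on replicate 3. The third, chrX:20388085-20388552 on strand F, had 2 features at -0.34 and -0.18 on replicate 1 and at 0.61 and 0.35 on replicate 3. Replicates 2 and 4 also differ in dye orientation, with female cultures only. There the 5 features were between -0.35 and 0.0038 and between -0.25 and -0.0054. The 3 were between 0.07 and 0.26 and between -0.03 and 0.35. The 2 were at 0.49 and -0.34 on replicate 2 and both at -0.14 on replicate 4. The part of sex was not tested. None of these 10 features passed the limma test for genotype. Without adjustment, 6 members of chromosome X were higher and 14 lower at p under 0.05, where 5527 of all 22859 features passed that cut in either direction. With processed signals, 1 passed as higher and 0 as lower, and without adjustment these counts were 3 and 35.

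Long noncoding RNAs that the array names by gene symbol were read beside the intervals. Of 34 listed for neural cells, 16 were measured, 3 were higher, 1 was lower, and the median log2 ratio was -0.05. Over all features tested, 6.96% were higher and 1.79% were lower. Neat1, which builds paraspeckles in the nucleus, was higher at 1.11 ± 0.06, with 1.55 and 1.50 on replicates 1 and 2 and 0.70 and 0.68 on replicates 3 and 4. Mir17hg, the host transcript of a microRNA cluster, was higher at 0.51 ± 0.07, with 0.09 and 0.05 on replicates 1 and 2 and 0.81 and 1.1 on replicates 3 and 4. For both Neat1 and Mir17hg, the SE leaves out the difference between dye orientations. Pvt1, a neighbour of Myc, was higher at 0.35 ± 0.07. Dlx6os1, transcribed opposite to Dlx6 in interneuron precursors, was lower at -0.41 ± 0.08.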

How the data were processed

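Gene expression was measured on 4 two-colour Agilent arrays of 1 slide and 1 scan, each with 1 APPswe/PS1dE9 and 1 WT RNA (100 ng total RNA amplified). Per the file headers, Feature Extraction 11.0.1.1 read the arrays and the annotation is mm9. The authors deposited unnormalized intensity values (spot and local background medians) for both channels, the software's processed intensity values, and their log10 ratios. A deposited value table, which states no scale, was found to be the processed signals as uncentred log2 ratios of APPswe/PS1dE9 to WT (slopes of -1.00, -1.00, 1.00 and 1.00 on log2 Cy5/Cy3; medians -0.0797, -0.155, -0.0373 and -0.0378).

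Background was corrected by normexp (offset 50) and arrays were normalized by loess with limma 3.58.1 (R 4.3.3). Control and outlier spots had weight 0 and were then left out. Genes were represented by their brightest probe, and each interval feature stood alone, giving 22859 features. A genotype coefficient and a dye intercept were fitted with lmFit and eBayes on 2 residual and 3.96 prior degrees of freedom, and two-sided p-values were adjusted by Benjamini-Hochberg at 0.05. On simulated data of 22859 features, 97% of log2 changes of 1 and 40% of 0.5 were recovered, with 8 false calls. The simulated errors were independent and normal, as the model assumes, so these figures do not measure the error rate of the calls here. Precision is limited by having 4 arrays.

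The members and gene lists were chosen with earlier results of these data known. Named intervals were the 12 highest and 12 lowest by their most extreme called feature with 1 sign on 4 arrays, and up to 8 each way with 2 or more members all called. A rule on neighbours of listed genes was not applied, because gene positions in mm9 were not used here. No interval sequences are printed. Alternatives changed signals, normalization, dye term, filter, collapsing, arrays and averaging over an interval.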

Additional observations from a re-analysis of the deposited data

Results flagged for a closer look

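Among 4295 members with a value on 4 arrays, 294 (6.85%) had 1 array far from the other three (gap over range above Dixon's critical value), where chance gives about 1 in 20. The array apart was replicate 1 for 60, replicate 2 for 114, replicate 3 for 85 and replicate 4 for 35. Of the named members, chr7:128341797-128414692 on strand R had a log2 ratio of 1.13 on replicate 4 against 0.37 to 0.50 on the others. The single chrX:72966144-73011019 feature on strand R had -0.20 on replicate 1 against -0.46 to -0.49.

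The 5 widest gaps were all single features above the other arrays. On replicate 1, chr6:66216675-66234475 on strand R stood at 3.69 against -0.08 to 0.07, and chr2:104702675-104736600 on strand F at 2.28 against -0.09 to 0.11. On replicate 2, chr8:108153471-108159346 on strand F stood at 2.20, and a second feature of that interval at -0.09. Also on replicate 2, chr17:29192453-29216073 on strand R stood at 2.17. In chr7:99879368-99889978 on strand F, 1 feature stood at 2.06 on replicate 2, while the 6 other features of the interval were between -0.22 and 0.08 there. None of these 5 passed the limma test, with adjusted p from 0.3286 to 0.435.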

How the results depend on the processing

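The number of called members moved with the processing and with single arrays. Against 69 higher and 54 lower, processed signals gave 22 and 47, the deposited values gave 22 and 48, and median centring 107 and 121. Without a dye term there were 52 and 34. With no filter, there were 42 and 5 among 16181 interval features. That setting refitted the model and adjusted with the array's other features unfiltered too, and the reason for the fewer calls was not tested. Averaging the features of an interval gave 40 and 18 of 2257 intervals. The same-sex arrays gave 10 and 0. Leaving out 1 replicate gave 10 to 343 higher and 2 to 79 lower. Of the 57 called members among 70 named, 23 passed with processed signals and with the deposited table, 31 with no filter, 10 on the same-sex arrays, and 10 to 53 without 1 replicate. Over 901 values of named members, 627 kept their direction and side of the threshold, 245 no longer passed, 21 newly passed and 8 changed sign, in 3 features that were not called. In chr9:24617562-24625262 the second feature stood at -0.123 with processed signals and with the deposited values, at -0.00488 on the same-sex arrays and from -0.0297 to 0.143 without 1 replicate. In chr14:26834450-26847000 the feature not called stood at -0.0517 with processed signals and at -0.0518 with the deposited values. In chr6:133054025-133069850 a feature stood at 0.0595 on the same-sex arrays and from -0.104 to 0.0165 without 1 replicate. Of the main calls, 43 were shared with processed signals and 105 with median centring. Over all features tested, 8.75% were called in the main fit, 3.49% with processed signals and 12.1% with median centring. Each ratio pairs the genotypes within 1 array, so no further block by replicate was fitted. Dim signal limits the intervals: their median log2 intensity was 7.51.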
